A study of Mus musculus with 24 samples.

Results

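The condensin and cohesin subunits are 10 genes whose protein products build ring-shaped complexes around DNA. Smc2, Smc4, Ncapd2, Ncapg, Ncaph, Ncapg2, Ncapd3, Smc1a, Smc3 and Rad21 were chosen by name, from 18193 genes measured in the small intestine of mice. Each gene was read from its probe set with the highest mean over 24 Affymetrix arrays, and the other 16 of its 26 probe sets in all served as a check. All 10 were measured, and no filter on low values was applied. Values are log2 levels, so a difference of 1 is a doubling.

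Crypts and villi were each profiled from 4 genotypes, with 3 arrays per group. WT is wild-type, Rb is Rb-/-, TKO is E2f1-/-;E2f2-/-;E2f3-/-, and QKO lacks Rb as well as these 3 E2f genes. All mice were 2 months old and of the C57BL/6;FVB strain, and all received beta-napthoflavone by intraperitoneal injection, with the tissue taken 7 days later. WT mice received it too. The sources used here do not give the promoter or Cre that drives the deletions, nor the cells in which they occur. Nothing in the labels says that a group's 3 arrays represent different animals, so the p-values measure the spread between these samples, which may be technical. By a Y chromosome gene given below, only Rb villi, TKO villi and TKO crypts held arrays of both sexes, and so of different mice. For the other groups this is not known.

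Condensins compact and stiffen chromosomes before a cell divides, and cohesin holds the sister copies together until they separate. Smc2 and Smc4 are the ATPase pair that both condensins share. Condensin I adds Ncapd2, Ncapg and Ncaph, and condensin II adds Ncapd3, Ncapg2 and a kleisin, Ncaph2. Cohesin is built on Smc1a and Smc3, closed by the kleisin Rad21, and also organises chromatin loops in cells that no longer divide. The crypt is the proliferative compartment of the intestine, where cells divide before they move onto the villus and differentiate. Rb restrains E2f transcription factors, which in other settings are known to drive genes of the cell cycle.

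Some arrays stood apart or went against their labels. The array labelled WT crypts 3 read Rb1 at 8.46, against 10.31 and 10.59 on the other WT crypt arrays, and the array labelled Rb crypts 2 read it at 10.25, against 8.23 and 8.87. Results that use either group are therefore also given without both arrays. In villi, Rb1 read 10.70 to 10.93 in WT and 8.84 to 9.36 in Rb, without overlap, and over both compartments it read 9.71 to 10.38 in TKO and 8.13 to 8.77 in QKO. E2f2 read 9.0 to 9.59 in WT and Rb crypts and 7.94 to 8.52 in TKO and QKO crypts, but 7.24 to 8.10 in WT villi and 7.74 to 8.08 in TKO villi. E2f3 overlapped between WT and TKO in both compartments, and E2f1 read 6.87 to 7.17 in TKO villi against 6.61 to 6.71 in WT villi. Whether any of these probe sets lies in the deleted part is not known here, so they do not check the TKO labels. QKO villi 3 and QKO crypts 2 had the highest array medians, 5.26 and 5.17, and without both 35 of the 36 QKO differences called below were called again, with Ncapd2 in QKO minus WT villi the exception (limma adjusted p = 0.053). The mean of the Affymetrix poly-A control probe sets, which report RNA added during sample preparation, split by E2f genotype. It was 5.44 to 7.13 on the 12 arrays with E2f1-3 and 9.70 to 11.89 on the 12 without them. This split in preparation and the E2f genotype cannot be told apart. The mean of the hybridization control probe sets differed by compartment. It was 10.81 to 11.16 in WT crypts, 10.93 to 11.11 in Rb crypts, 10.23 to 10.47 in WT villi and 10.28 to 10.35 in Rb villi. In TKO and QKO the order was opposite, with 10.57 to 10.70 and 10.55 to 10.98 in crypts, and 10.76 to 10.95 and 11.23 to 11.45 in villi. Its part in villi minus crypts was not tested. By Eif2s3y, a gene of the Y chromosome, the WT and Rb crypt arrays and the WT villus arrays were all female, 2 of 3 arrays were male in Rb villi and in both TKO groups, and all 6 QKO arrays were male. Rb villi 1 and 3 were male and Rb crypts 1 and 3 female, so these same-numbered arrays came from different mice. Villi minus crypts in Rb therefore also compares the sexes in part. Among tissue markers, the mean of 8 enterocyte genes was 12.91 to 13.69 in crypts and 13.78 to 14.13 in villi, and that of 7 stem cell genes was 7.93 to 9.47 and 6.99 to 7.87, so both compartments carried their labelled order, while the crypt arrays also held abundant enterocyte RNA.

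The promoters of 8 of the 10 genes are shown in part here because the genotypes remove E2f factors and their partner Rb. The sequences are from RefSeq on build GRCm38.p6 and run from 250 bases before to 50 bases after the gene's start. Both strands were searched for the E2F words TTCCCGC or TTGGCGC or TTCGCGC or TTGCCGC, for the CHR words TTTGAA or TTCGAA, a sequence class found in promoters of mitotic genes, and for CCAAT. Capitals mark E2F and CHR words on either strand. Ncapg is at chr5:45669675-45669974 on the plus strand, Ncapg2 at chr12:116405186-116405485 on the plus strand, Ncapd2 at chr6:125191537-125191836 on the minus strand, Smc2 at chr4:52438971-52439270 on the plus strand and Smc3 at chr19:53600146-53600445 on the plus strand.
Ncapg: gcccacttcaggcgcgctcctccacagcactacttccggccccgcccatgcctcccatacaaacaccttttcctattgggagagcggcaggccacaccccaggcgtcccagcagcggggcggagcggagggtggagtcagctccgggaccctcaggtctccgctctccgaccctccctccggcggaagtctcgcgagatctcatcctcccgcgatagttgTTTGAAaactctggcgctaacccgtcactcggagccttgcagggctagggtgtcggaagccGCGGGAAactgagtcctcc
Ncapg2: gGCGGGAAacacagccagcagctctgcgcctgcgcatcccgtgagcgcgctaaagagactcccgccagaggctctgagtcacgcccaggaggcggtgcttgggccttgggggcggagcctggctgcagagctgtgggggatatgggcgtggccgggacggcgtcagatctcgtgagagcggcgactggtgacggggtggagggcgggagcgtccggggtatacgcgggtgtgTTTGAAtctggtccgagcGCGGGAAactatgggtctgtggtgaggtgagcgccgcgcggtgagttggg
Ncapd2: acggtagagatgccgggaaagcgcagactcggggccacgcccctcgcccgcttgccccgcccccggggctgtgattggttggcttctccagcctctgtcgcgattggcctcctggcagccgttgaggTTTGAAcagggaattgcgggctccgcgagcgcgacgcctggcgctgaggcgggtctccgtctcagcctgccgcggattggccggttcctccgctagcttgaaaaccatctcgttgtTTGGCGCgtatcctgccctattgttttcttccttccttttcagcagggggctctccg
Smc2: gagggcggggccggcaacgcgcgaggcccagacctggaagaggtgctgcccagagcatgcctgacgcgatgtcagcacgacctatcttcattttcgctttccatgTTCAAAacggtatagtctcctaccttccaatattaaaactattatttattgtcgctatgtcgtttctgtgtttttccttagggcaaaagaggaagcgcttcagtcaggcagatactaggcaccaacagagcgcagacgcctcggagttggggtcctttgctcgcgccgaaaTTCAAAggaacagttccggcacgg
Smc3: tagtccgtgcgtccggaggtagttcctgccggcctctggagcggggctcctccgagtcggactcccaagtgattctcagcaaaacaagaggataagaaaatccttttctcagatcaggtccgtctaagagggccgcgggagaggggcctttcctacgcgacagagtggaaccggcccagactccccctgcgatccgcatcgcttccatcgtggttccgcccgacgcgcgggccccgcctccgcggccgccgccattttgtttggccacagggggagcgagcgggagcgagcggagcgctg
These 5 were chosen to show promoters with both kinds of word, with CHR words alone and with neither. Ncapg has a CHR word that begins at position -30 from the start and an E2F word that begins at position 32. In Ncapg2 an E2F word begins at position 1 and another at -249, with a CHR word at -18. Ncapd2 carries an E2F word at -7. Ncaph, Ncapd3 and Smc1a each hold 1 E2F word as well. Over the 8 genes, 6 held an E2F word in at least 1 promoter, 5 held a CHR word and 4 held CCAAT. Of all 27025 genes with a promoter, 10.9% held an E2F word, 21.7% a CHR word and 41.1% CCAAT. Matches of different words did not overlap. A match is a run of letters and not a measured binding site. Smc4 and Rad21 are named only.

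In WT, every subunit was lower in villi than in crypts. Among condensin I subunits, Ncapg and Ncapd2, both HEAT-repeat proteins, were 7.66-fold and 6.69-fold lower. Condensin II split on the brightest probe sets, with Ncapg2 6.39-fold lower and Ncapd3 1.87-fold lower. In cohesin, Smc3 was 2.85-fold, Smc1a 1.99-fold and Rad21 1.62-fold lower.

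In WT crypts Ncapg read 8.07, 8.24 and 8.40, and in WT villi 5.44, 5.21 and 5.24. The lowest crypt array lay well above the highest villus array. The difference was -2.94 ± 0.22 (SE of the fit pooled over all 8 groups, n = 3 per group, limma, adjusted p = 7e-09). Ncapg2 read 8.48, 8.86 and 9.89 in WT crypts and 6.64, 6.52 and 6.05 in WT villi. Its crypt arrays spread widely, with the highest value on the array labelled WT crypts 3, and its difference was -2.68 ± 0.32 (limma adjusted p = 1.5e-06). Smc2 read 9.61, 9.72 and 10.29 in crypts and 7.45, 7.52 and 7.14 in villi, again without overlap, a difference of -2.50 ± 0.20 (limma adjusted p = 1.1e-08).

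Ncapd3, the condensin II partner of Ncapg2, read 8.36, 8.79 and 9.23 in WT crypts and 7.91, 7.92 and 7.83 in WT villi. The groups did not overlap, and the difference was -0.90 ± 0.18 (limma adjusted p = 0.00035). The other Ncapd3 probe sets were called lower too, at -1.29 and -0.74, so the size of its fall depends on the probe set. For Rad21, the cohesin kleisin, the crypt values were 11.14, 11.41 and 11.67 and the villus values 10.58, 10.82 and 10.73. These groups also stayed apart, by a smaller margin, with a difference of -0.70 ± 0.15 (limma adjusted p = 0.0012). The differences were -1.68 for Smc4, -1.91 for Ncaph, -0.99 for Smc1a and -1.51 for Smc3. All 10 were called lower at an adjusted p under 0.05, against 18.6% of all genes, and in all 10 the arrays of the compartments did not overlap. The share of all genes without overlap was not counted, here or in the comparisons below. Such counts therefore describe the arrays and have no baseline. The median difference of the 10 genes was -1.79, against 0.08 over all genes. It was -2.50 over the 7 condensin subunits and -0.99 over the 3 cohesin subunits. Sizes depended on the probe set: Smc4 read -1.68 on its brightest and -2.25 and -2.96 on its others. Smc2 read -2.50 on its brightest and -2.24 to 0.03 on its others. The part of probe sets in the gap between condensin and cohesin medians, here and below, was not tested. Without both arrays against their labels, all 10 were still called and the median was -1.68. The 7 stem cell markers were lower in villi too, all called, with a median of -1.44, so the compartments also differed in cell makeup. In bulk samples, fewer dividing cells and less RNA per cell cannot be told apart. The 3′ minus 5′ log2 difference of the Gapdh control probe sets, a measure of RNA integrity and labelling, did not overlap between these groups. It was -0.17 to -0.14 in WT crypts and -0.13 to 0.27 in WT villi. The part of RNA quality in the WT difference was not tested.

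**Figure D1:**
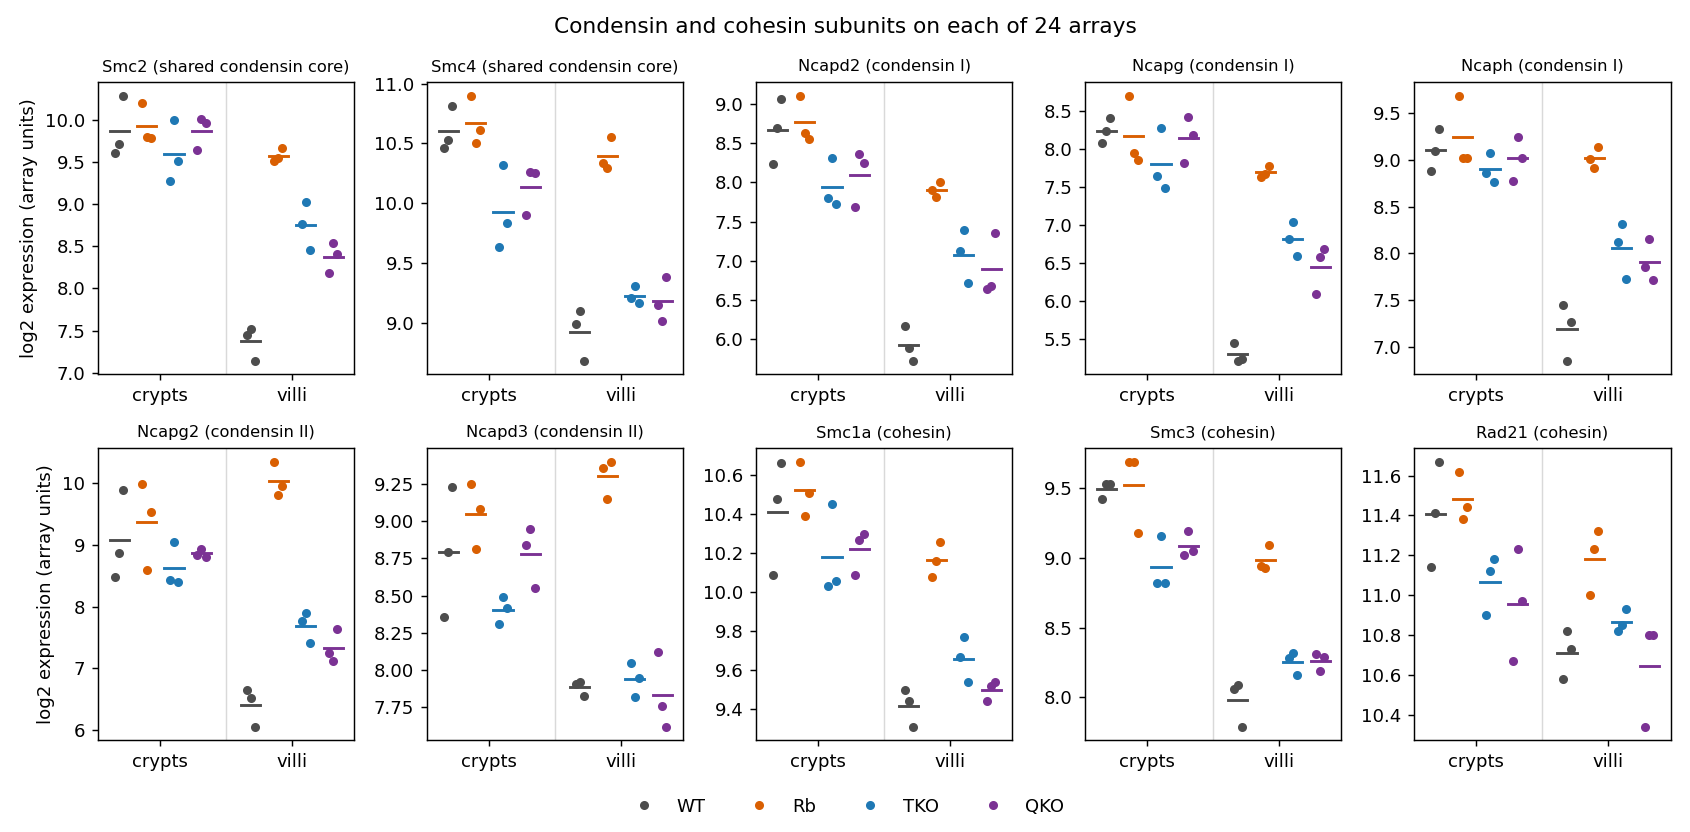
Log2 level of each of the 10 genes (y axis, array units, a separate scale per panel) on each of 24 arrays, with crypts on the left and villi on the right of each panel. Points are arrays coloured by genotype and bars are means of 3 arrays. WT villi are lowest for Ncapg, at 5.21 to 5.44, and Rb villi rise to 7.63 to 7.77.

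Between Rb and WT, the subunits differed in villi, with no call in crypts. All 10 were higher in Rb villi than in WT villi, from Ncapg2 at 12.4-fold to Rad21 at 1.39-fold. The Rb villus arrays overlapped the WT and Rb crypt arrays for Ncapg2 and lay above the TKO and QKO crypt arrays. In crypts, no subunit was called between Rb and WT.

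Ncapg2 read 10.35, 9.80 and 9.96 in Rb villi against 6.64, 6.52 and 6.05 in WT villi. The lowest Rb array lay more than 3 log2 units above the highest WT array, and the difference was 3.64 ± 0.32 (limma adjusted p = 7.5e-08). No second probe set measures this gene. Ncapg read 7.63, 7.67 and 7.77 in Rb villi against 5.44, 5.21 and 5.24, a difference of 2.39 ± 0.22 (limma adjusted p = 1.6e-07). Smc2 read 9.51, 9.55 and 9.67 against 7.45, 7.52 and 7.14, a difference of 2.20 ± 0.20 (limma adjusted p = 9.9e-08). In both genes the 3 Rb arrays lay close together and far from WT.

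The condensin I subunits Ncapd2 and Ncaph, the kleisin that closes that ring, rose by 1.98 and 1.83. Smc4 rose by 1.47. Ncapd3 read 9.36, 9.15 and 9.40 in Rb villi against 7.91, 7.92 and 7.83, and rose by 1.42 ± 0.18 (limma adjusted p = 6.6e-06). On the same probe set, its villi minus crypts difference in WT was -0.90. Its Rb villus values exceeded its highest WT crypt value on 2 of 3 arrays.

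Among cohesin subunits, Smc3 read 8.94, 8.93 and 9.09 in Rb villi against 8.06, 8.09 and 7.79, and rose by 1.0 ± 0.13 (limma adjusted p = 1.5e-05). Smc1a, its ATPase partner, rose by 0.75 ± 0.14 (limma adjusted p = 0.00046). Rad21 read 11.0, 11.23 and 11.32 against 10.58, 10.82 and 10.73, which barely separated the groups, and its rise was 0.47 ± 0.15 (limma adjusted p = 0.043). That call on Rad21 rested on single arrays: it was lost without WT villi 1, 2 or 3 or Rb villi 2 or 3 (adjusted p 0.056 to 0.17), with sex as a covariate (0.18) and with all probe sets tested (0.056).

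In villi, 10 of 10 were called higher, against 8.59% of all genes called higher. In all 10 the arrays did not overlap, a count with no share over all genes beside it. The median was 1.65, against -0.08 over all genes, and it was 1.98 for condensin and 0.75 for cohesin. The 1 female Rb villus array, Rb villi 2, read Ncapg2 at 9.80 and Smc2 at 9.55, against 10.35 and 9.96, and 9.51 and 9.67, on the 2 male arrays. With sex as a covariate 9 of 10 remained called. All WT villus arrays were female, so sex and genotype cannot be fully told apart here. None of 7 stem cell, 8 enterocyte, 5 Paneth or 7 goblet markers was called between Rb and WT villi, while 4 of 7 enteroendocrine markers were called lower. The Gapdh 3′ minus 5′ difference was 0.18, -0.13 and 0.27 in WT villi against -0.08 to -0.06 in Rb villi. For the actin controls it was 1.21, 0.8 and 1.36 against 0.86 to 0.91. The part of RNA quality was not tested, here or in the other comparisons that use WT villi.

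**Figure D2:**
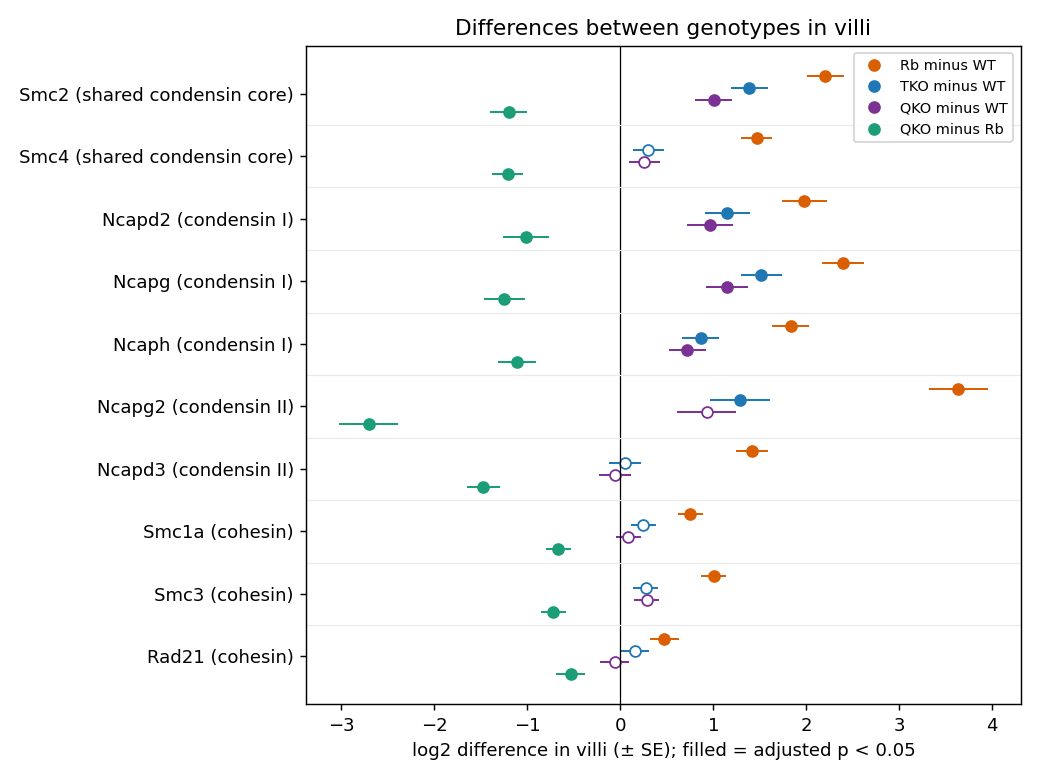
Log2 difference between genotypes in villi (x axis) for each gene, with SE of the fit pooled over 8 groups as bars (3 arrays per group). Filled points passed an adjusted p under 0.05. Rb minus WT is filled and above 0 for all 10 genes, QKO minus Rb is filled and below 0 for all 10, and TKO minus WT is filled for 5.

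In crypts, the Rb minus WT differences ran from -0.07 for Ncapg to 0.29 for Ncapg2, and 0 of 10 were called by limma, with 0 also at an unadjusted p under 0.05. Over all genes, 0% were called, with 709 of 18193 (3.9%) at an unadjusted p under 0.05. The arrays overlapped in all 10 genes. The 95% interval was -0.54 to 0.39 for Ncapg, -0.36 to 0.47 for Smc2 and -0.37 to 0.96 for Ncapg2, but these intervals include the 2 arrays whose Rb1 went against the label. Without them, 2 arrays per group remained. Ncapg2 then read 8.48 and 8.86 in WT against 9.99 and 9.53 in Rb, without overlap, and its difference was 1.09 instead of 0.29 (limma adjusted p = 0.14). The median difference was 0.32 instead of 0.09, and again 0 of 10 were called, with 18 called over all genes. A difference of a doubling in Ncapg2 is therefore not excluded in crypts.

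The rise in villi was tested against the change in crypts as a contrast of the same fit. It was larger in villi by 3.34 ± 0.45 for Ncapg2, 2.46 ± 0.32 for Ncapg and 2.15 ± 0.28 for Smc2 (limma adjusted p = 7.6e-05, 5e-05 and 5.7e-05). In all, 8 of 10 passed, against 4.12% of all genes called in this direction. The cohesin subunits Smc1a, at 0.64 (limma adjusted p = 0.056), and Rad21, at 0.40 (limma adjusted p = 0.33), did not pass. Without the 2 arrays against their labels, 8 passed as well.

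Within Rb, 8 subunits were not called between the compartments. Villi minus crypts was called lower for Ncapd2 (-0.86 ± 0.24, limma adjusted p = 0.019) and Smc3 (-0.53 ± 0.13, limma adjusted p = 0.0092), 2 of 10 against 9.65% of all genes, with a median of -0.33. Ncapg2 and Ncapd3 gave positive values of 0.67 and 0.26 that were not called. The arrays did not overlap in 6 of 10, a count with no share over all genes beside it. Of the other probe sets, 7 were called lower where the brightest one was not, so the choice of probe set decides this count. It also fell to 1 without Rb crypts 2, Rb villi 1 or Rb villi 2, to 1 without both arrays against their labels, and to 0 without Rb crypts 1.

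**Figure D3:**
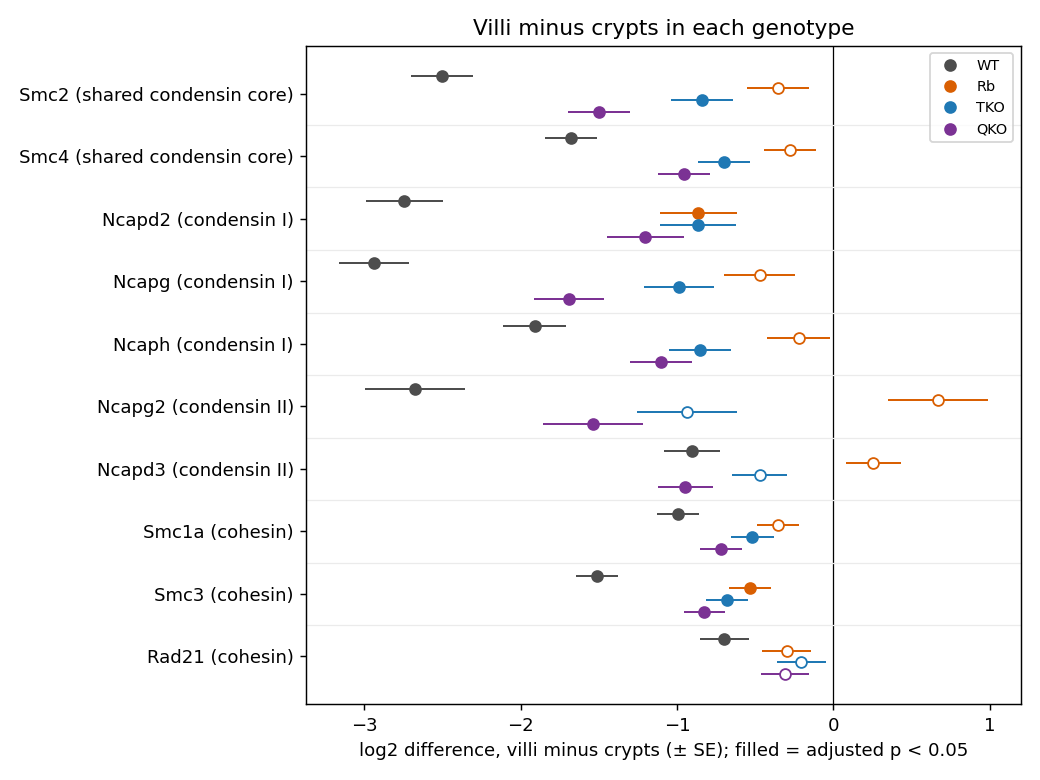
Log2 difference of villi minus crypts (x axis) for each gene in each genotype, with SE of the fit as bars (3 arrays per group). Filled points passed an adjusted p under 0.05. WT is filled for all 10 genes, Rb for 2, TKO for 7 and QKO for 9.

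Between TKO and WT, 5 condensin subunits were called higher in villi and 2 subunits lower in crypts. In villi, Ncapg was 2.86-fold, Smc2 2.61-fold, Ncapg2 2.44-fold, Ncapd2 2.22-fold and Ncaph 1.82-fold higher in TKO than in WT. Smc4, Ncapd3 and the cohesin subunits were not called there. In crypts, Smc4 and Smc3 were called lower.

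In TKO villi, Ncapg read 6.81, 7.04 and 6.59, above all 3 WT arrays at 5.21 to 5.44 and below all 3 Rb arrays at 7.63 to 7.77. Its difference from WT was 1.52 ± 0.22 (limma adjusted p = 0.00014). Smc2 lay between WT and Rb as well, at 8.77, 9.03 and 8.46, with a difference of 1.38 ± 0.20 (limma adjusted p = 0.00011). Ncapg2 read 7.76, 7.90 and 7.41, again between the 2 groups, and differed from WT by 1.29 ± 0.32 (limma adjusted p = 0.012). Ncapd3 read 8.05, 7.82 and 7.95 in TKO villi, overlapping WT, with a difference of 0.05 ± 0.18 (limma adjusted p = 0.92) and a 95% interval of -0.31 to 0.42.

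Of the 10 genes, 5 were called higher in TKO villi, all of them condensin subunits, against 6.21% of all genes. The arrays did not overlap in 9, a count with no share over all genes beside it. The median was 1.15 over the condensin subunits and 0.25 over the cohesin subunits, against -0.03 over all genes. Without TKO villi 2 the count was 3, with Ncaph and Ncapg2 no longer called. Of 7 goblet markers, 5 were called lower in TKO villi, with a median of -1.15, and their part in the result was not tested.

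In TKO crypts, Smc4 read 9.63, 10.32 and 9.83 against 10.46, 10.53 and 10.81 in WT, a difference of -0.67 ± 0.17 (limma adjusted p = 0.023). Smc3 read 8.82, 9.16 and 8.82 against 9.42, 9.53 and 9.53, a difference of -0.56 ± 0.13 (limma adjusted p = 0.018). Both were without overlap, and these were the 2 of 10 called lower, against 2.8% of all genes. The other 8 differences were also below 0, from -0.72 for Ncapd2 to -0.20 for Ncaph, and none was called. The count was 0 when WT crypts 2 or 3, or TKO crypts 1 or 3, was left out, and 0 without both arrays against their labels, where the median was -0.18 instead of -0.41. Other probe sets read larger falls: 11 of 16 were called lower, with Smc4 at -1.84 and -1.38 on its 2 other sets and Smc2 at -1.48 on one of its others. The 3′ minus 5′ log2 difference of the Gapdh control probe sets, a measure of RNA integrity and labelling, was -0.18 to -0.12 on the WT and Rb crypt arrays and 0.01 to 0.23 on the TKO and QKO crypt arrays. Of 7 goblet markers, 5 were called lower in TKO than in WT crypts (median -0.97). The part of RNA quality and of these markers in the fall was not tested, and the poly-A split cannot be told apart from the genotype.

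The difference between compartments in the TKO effect was itself called for 7 of 10, against 2.69% of all genes. It was 1.95 ± 0.32 for Ncapg, 1.88 ± 0.35 for Ncapd2 and 1.66 ± 0.28 for Smc2 (limma adjusted p = 0.0019, 0.0045 and 0.0024), and it was called for Smc3 at 0.83 ± 0.19 (limma adjusted p = 0.016). Ncapd3, Smc1a and Rad21 did not pass. The count was 3 without TKO crypts 1, TKO crypts 3, TKO villi 2 or WT villi 3, 4 without WT crypts 3, and 5 without both arrays against their labels.

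Within TKO, villi were lower than crypts for 7 of 10 genes, against 8.99% of all genes, with a median of -0.77. The largest was Ncapg at -0.99 ± 0.22 (limma adjusted p = 0.0068). Ncapg2, at -0.93 ± 0.32, was not called (limma adjusted p = 0.052), but was called with the replicate number as a block (adjusted p = 0.029), which pairs crypts and villi in this genotype. Without TKO crypts 2 the count was 1 and without TKO villi 3 it was 2, and with the mean of all probe sets of a gene it was 3.

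Among villi without the 3 E2f genes, no subunit was called higher where Rb was lost as well. All 10 were lower in QKO villi than in Rb villi, led by Ncapg2 at 6.53-fold, Ncapd3 at 2.77-fold and Ncapg at 2.37-fold. Against TKO villi, no subunit was called in either direction. The rise with Rb loss thus differed by E2f status, and that difference was called for all 10.

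In QKO villi, Ncapg2 read 7.24, 7.11 and 7.64, against 10.35, 9.80 and 9.96 in Rb villi. No array overlapped, and the difference was -2.71 ± 0.32 (limma adjusted p = 6.6e-06). Ncapd3 read 8.12, 7.76 and 7.62 against 9.36, 9.15 and 9.40, a difference of -1.47 ± 0.18 (limma adjusted p = 7.5e-06), and its QKO values spanned those of WT villi. Smc2 read 8.18, 8.54 and 8.41 against 9.51, 9.55 and 9.67, a difference of -1.20 ± 0.20 (limma adjusted p = 0.00021). Unlike Ncapd3, Smc2 stayed above the WT villus arrays, whose highest was 7.52.

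Ncapg read 6.09, 6.57 and 6.68 in QKO villi and differed from Rb by -1.25 ± 0.22 (limma adjusted p = 0.00044). The cohesin subunits Smc3, at -0.72 ± 0.13, Smc1a, at -0.67 ± 0.14, and Rad21, at -0.54 ± 0.15, were lower as well (limma adjusted p = 0.00057, 0.0012 and 0.016). All 10 were called lower than in Rb, against 8.02% of all genes. In all 10 the arrays did not overlap, a count with no share over all genes beside it. The median was -1.16, against 0.08 over all genes, and -1.21 for condensin against -0.67 for cohesin. In QKO villi, 7 of 7 enteroendocrine markers and 3 of 5 T cell markers were called higher than in Rb villi. The mean of the former was 10.83 to 11.55 against 8.15 to 8.31, and that of the latter 8.06 to 8.69 against 7.10 to 7.33. Of 7 goblet markers, 5 were called lower (median -0.77), while 3 of 9 smooth muscle and fibroblast markers and 2 of 5 macrophage markers were called higher. The 3′ minus 5′ difference was 0.12 to 0.28 in QKO villi against -0.08 to -0.06 in Rb villi for the Gapdh controls, and 1.03 to 1.31 against 0.86 to 0.91 for the actin controls, both without overlap. The part of these markers and of RNA quality in the lower levels was not tested.

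Between QKO and TKO villi, the differences ran from -0.38 for Smc2 to 0.01 for Smc3, and 0 of 10 were called by limma, with 0 also at an unadjusted p under 0.05. Over all genes 6.68% were called in either direction. The 95% interval was -0.79 to 0.03 for Smc2, -1.02 to 0.31 for Ncapg2 and -0.47 to 0.26 for Ncapd3. A rise as large as that between Rb and WT lies outside each of these intervals. In QKO compared with TKO villi, 7 of 7 enteroendocrine markers (median 2.06) and 4 of 7 goblet markers were called higher, with 1 goblet marker lower. Also higher were 2 of 5 T cell, 2 of 5 macrophage and 2 of 9 smooth muscle and fibroblast markers. The Gapdh 3′ minus 5′ difference was 0.12 to 0.28 in QKO against 0 to 0.03 in TKO villi. The part of markers and RNA quality was not tested. In crypts 0 of 10 were called between QKO and TKO, against 1.61% of all genes, and Ncapd3 alone passed an unadjusted p under 0.05, at 0.37 (unadjusted p = 0.048).

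The change with Rb loss in villi, taken without the E2f genes less with them, was -3.99 ± 0.45 for Ncapg2, -2.76 ± 0.32 for Ncapg and -2.58 ± 0.28 for Smc2 (limma adjusted p = 4.1e-06, 4.8e-06 and 2.8e-06). For Rad21 it was -0.69 ± 0.22 (limma adjusted p = 0.035). All 10 were called lower, against 6.52% of all genes. The median was -1.75, against 0.12 over all genes, and -2.17 for condensin against -0.91 for cohesin. This contrast shares its Rb and WT villus arrays with the comparisons above, and its E2f groups are those split by the poly-A controls. In the same contrast 7 of 7 enteroendocrine markers were called higher (median 3.03) and 2 of 7 stem cell markers lower. The part of these markers was not tested.

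Against WT villi, in a comparison added after the others, QKO villi were higher for Smc2 (1.0 ± 0.20), Ncapg (1.15 ± 0.22), Ncapd2 (0.97 ± 0.24) and Ncaph (0.72 ± 0.20), with limma adjusted p of 0.0015, 0.0014, 0.0096 and 0.016. These 4 of 10 compare with 11.6% of all genes called higher. Of the 16 other probe sets, 1 was called higher, a dim Smc2 set at 0.53, and 1 lower, a dim Ncapd2 set at -0.39. The second sets of Ncapg, at 0.76, and Ncaph, at 0.48, were not called. Ncapg2, at 0.93 ± 0.32, was not called (limma adjusted p = 0.05 after rounding), although its difference was larger than that of Ncaph. Smc3 differed by 0.28, Smc4 by 0.26, Ncapd3 by -0.06, Smc1a by 0.09 and Rad21 by -0.06, none of them called. With sex as a covariate 1 remained called, and all QKO arrays were male and all WT arrays female. The 7 enteroendocrine markers were all called higher there and 3 of 7 goblet markers lower, and their part was not tested.

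In crypts, QKO was lower than Rb for Smc4 (-0.53 ± 0.17), Smc3 (-0.43 ± 0.13) and Rad21 (-0.53 ± 0.15), with limma adjusted p of 0.032, 0.03 and 0.023. These 3 of 10 compare with 3.78% of all genes. Beside them, 6 of 7 goblet markers were called lower (median -1.12), and 4 of 7 enteroendocrine and 2 of 2 pancreas acinar markers higher (medians 0.91 and 2.42). The part of these markers was not tested. On their brightest probe sets, Smc2 and Ncapg differed by -0.05 and -0.03 and were not called. The other Smc2 sets, with means of 3.05 to 4.54, differed. They read -1.22, -1.001 and -1.07, all called lower, and 0.11, not called. The second Ncapg set, at -0.51, was not called. The size for Smc2 therefore depends on the probe set. The count of subunits called lower was 0 without QKO crypts 1 or Rb crypts 1. It was 1 with sex as a covariate and 3 without both arrays against their labels. Of the other probe sets 10 of 16 were called lower.

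Within QKO, villi were below crypts for 9 of 10 genes, against 19.9% of all genes, with a median of -1.03. Ncapg read 7.81, 8.42 and 8.18 in QKO crypts and differed by -1.69 ± 0.22 (limma adjusted p = 1.3e-05). Rad21, at -0.31 (limma adjusted p = 0.14), was not called. In the same comparison 6 of 7 stem cell markers were called lower. Called higher were 5 of 7 goblet, with 1 lower, 5 of 7 enteroendocrine, 5 of 5 T cell and 3 of 5 macrophage markers. The poly-A controls read 9.70 to 10.37 in QKO crypts and 11.28 to 11.89 in QKO villi. The part of these markers and controls was not tested.

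The lowest groups were alike for most condensin subunits: TKO, QKO and WT villi came last, in that order, in all but Ncapd3. The place of Rb villi differed. They were 5th for Smc2, Ncapd2 and Ncapg, 3rd for Smc4 and Ncaph, and 1st for Ncapg2 and Ncapd3. In the cohesin subunit Smc1a they were 5th as well. Smc2 was highest in Rb crypts (mean 9.93), followed by QKO crypts (9.87), WT crypts (9.87), TKO crypts (9.60) and Rb villi (9.57), with neighbours whose arrays overlapped. A gap followed to TKO villi (8.75) and QKO villi (8.37), which overlapped each other, and another to WT villi (7.37). Ncapg gave the same steps, with TKO villi at 6.82, QKO villi at 6.45 and WT villi at 5.30. Ncapg2 and Ncapd3 were highest in Rb villi, at 10.04 and 9.30, overlapping Rb crypts at 9.37 and 9.05. In Ncapd3 the TKO, WT and QKO villi overlapped at 7.94, 7.89 and 7.83. Rad21 had the narrowest range of means, from 11.48 in Rb crypts to 10.65 in QKO villi.

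Over the 24 arrays the subunits rose and fell together. Pearson's r was 0.747 to 0.988 over 21 pairs within condensin (median 0.91), 0.812 to 0.951 over 3 pairs within cohesin (median 0.862) and 0.728 to 0.962 over 21 pairs between them (median 0.876). The points are single arrays of 8 groups that share compartment and genotype, so these values are a description. The genes most like Ncapg over the arrays were Incenp (r = 0.988), Shcbp1 (0.986), Kif18a (0.984), Cdk1 (0.984) and Kntc1 (0.984). Cdk1 is the kinase that starts mitosis, and Incenp belongs to the chromosomal passenger complex. Those most like Smc3 were Syde2 (r = 0.976), Hnrnpm (0.970), Smarca5 (0.968), Cdca2 (0.967) and Pwwp3a (0.964).

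The other probe sets gave no call in the opposite direction for Rb minus WT or QKO minus Rb in villi. Of the 16, 11 were called higher in Rb than in WT villi and 11 lower in QKO than in Rb villi, with 5 not called in each. Among those not called, a dim Ncapd2 set was at -0.22 for Rb minus WT and 1 dim Smc2 set was at 0.0012 for QKO minus Rb. For WT villi minus crypts 12 were called lower and 3 were not called. The remaining one, the same Ncapd2 set, with a mean of 3.83, was called higher at 0.41. In TKO minus WT villi only 1 of 16 was called, and in QKO minus WT villi 1 was called higher and 1 lower. Those comparisons therefore rest on the brightest sets more than the Rb comparison does.

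**Figure D4:**
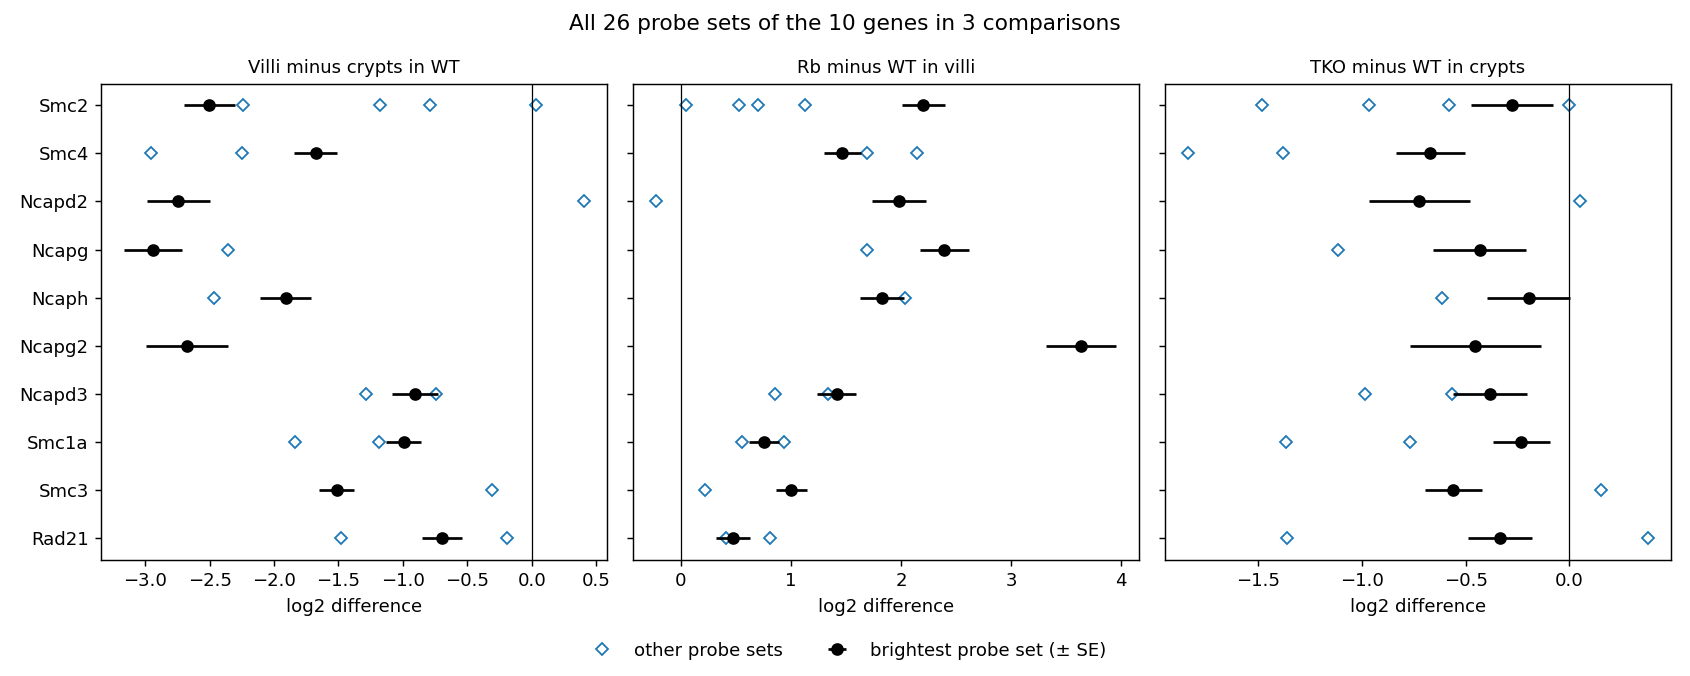
Log2 difference (x axis, a separate scale per panel) for all 26 probe sets of the 10 genes in WT villi minus crypts, Rb minus WT villi and TKO minus WT crypts. Black points are the brightest probe set with its SE and open diamonds are the 16 others. In TKO minus WT crypts several diamonds lie left of the black point, as for Smc4 at -1.84 and -1.38.

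Partners of both complexes were read from a list of 40 genes, of which 39 were measured. In WT, 29 were lower and 4 higher in villi than in crypts, with a median of -0.81. Between Rb and WT villi 25 were higher and 3 lower, with a median of 0.76, and between QKO and Rb villi 3 were higher and 21 lower, with a median of -0.57. Between TKO and WT villi 13 were higher and 1 lower, and between Rb and WT crypts 0 were called. Over all 18193 genes, 18.6% were called lower and 3417 genes higher in WT villi than in crypts. Between Rb and WT villi 8.59% were higher and 1127 genes lower, and between QKO and Rb villi 8.02% were lower and 2584 genes higher. Between TKO and WT villi 6.21% were higher and 649 genes lower, and between Rb and WT crypts 0% were called.

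Of 14 genes that load, release, acetylate or cleave cohesin, 9 were higher and 1 lower in Rb than in WT villi. Over all genes, 8.59% were called higher there. Esco2, which acetylates Smc3 during replication, rose by 2.88 ± 0.26, Sgo1, which protects cohesin at centromeres, by 2.00 ± 0.17, and Cdca5, which keeps cohesin on DNA, by 1.51 ± 0.20 (limma adjusted p = 1.2e-07, 7.2e-08 and 1.5e-05). Nipbl, the cohesin loader, differed by 0.35 and was not called (limma adjusted p = 0.25). Pttg1, which holds separase inactive, was lower, at -0.61 ± 0.16 (limma adjusted p = 0.012). In QKO compared with Rb villi, Esco2 was at -1.95 and Sgo1 at -1.31, both called lower, whereas Cdca5 was at -0.02 (limma adjusted p = 0.96).

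Of 13 genes of mitotic chromosome structure, 9 were higher and 1 lower in Rb than in WT villi, against 8.59% of all genes called higher. Mki67, a proliferation marker that coats mitotic chromosomes, rose by 2.90 ± 0.29, and Top2a, the topoisomerase that disentangles them, by 2.36 ± 0.27 (limma adjusted p = 4e-07 and 2.4e-06). In the related Smc5/6 complex 4 of 6 were higher, with Smc5 at 1.36 ± 0.16 and Smc6 at 1.33 ± 0.15 (limma adjusted p = 2.5e-06 and 2.8e-06). Among the remaining subunits, Stag1 and Stag2, alternative partners of Rad21, rose by 0.86 and 0.71, and Ncaph2, the condensin II kleisin, by 0.56 (limma adjusted p = 3.1e-05, 6.9e-05 and 0.0053).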

How the data were processed

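RNA of crypts and villi was measured on 24 Affymetrix mouse arrays, 3 in each of 8 groups taken from the labels. Per the labels' protocols, Trizol was used to isolate RNA, which was turned into biotin-labelled cRNA. Each deposited value is the log2 expression of a probe set, from 2.29 to 14.9, with array medians of 4.97 to 5.26. The sources used here do not name the authors' summarisation or normalization method, and nothing was normalized again. The number of arrays limits the precision.

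Of 45101 probe sets, 34945 carried 1 gene in the platform annotation, 932 several and 9160 none, and 64 were controls. Symbols were updated through Entrez for 34741 and kept for 204. A gene was read from its brightest probe set, which gave 18193 genes. Levels of different probe sets were not compared.

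limma 3.58.1 in R 4.3.3 fitted 1 mean per group over all arrays, with a variance trend, 16 residual and 4.86 prior degrees of freedom. Tests were 2-sided, with p-values adjusted over all genes (Benjamini-Hochberg) in each of 16 comparisons, at a threshold of 0.05. The script was tested on simulated data. Comparisons share WT or Rb arrays. Named genes were the members, the listed partner genes with the smallest p and the 5 genes most alike to Ncapg and Smc3. Other partner genes were named for their role after their values were seen. The members, lists and tests were chosen with earlier results of these data known, and the QKO minus WT comparison was added later.

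Within groups arrays correlated at 0.98 to 0.994, with 0 identical pairs. Deviations of same-numbered crypt and villus arrays gave r of 0.61, 0.55 and 0.64 for TKO, and r of 0.55, 0.25 and 0.37 for QKO, so the numbers pair there by the values and not by the labels. In WT they were 0.01, 0.13 and 0, and in Rb 0.06, -0.01 and -0.24. Alternatives changed normalization, the trend, dim genes, probe set choice, the groups fitted, array weights, sex, the replicate block and single arrays. Figures were drawn with matplotlib 3.10.9.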

Additional observations from a re-analysis of the deposited data

Results flagged for a closer look

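The following differences between groups in the same contrast were each tested in the limma fit and passed an adjusted p under 0.05. The Rb minus WT difference was larger in villi than in crypts by 2.15 for Smc2, 1.40 for Smc4, 1.88 for Ncapd2, 2.46 for Ncapg, 1.69 for Ncaph, 3.34 for Ncapg2, 1.16 for Ncapd3 and 0.98 for Smc3. The TKO minus WT difference was higher in villi than in crypts by 1.66 for Smc2, 0.97 for Smc4, 1.88 for Ncapd2, 1.95 for Ncapg, 1.06 for Ncaph, 1.74 for Ncapg2 and 0.83 for Smc3. The change with Rb loss in villi was lower without E2f1, E2f2 and E2f3 than with them, by -2.58 for Smc2, -1.51 for Smc4, -2.17 for Ncapd2, -2.76 for Ncapg, -1.98 for Ncaph, -3.99 for Ncapg2, -1.52 for Ncapd3, -0.91 for Smc1a, -0.99 for Smc3 and -0.69 for Rad21. Groups of 3 arrays are too small for a check of single arrays against the others.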

How the results depend on the processing

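Of 160 differences (10 genes in 16 comparisons), 87 were called. Over the alternatives run, these 87 gave 1610 values, of which 1488 kept the call and its direction, 122 lost the call and 0 turned direction. The differences not called gave 1270 values, of which 42 were called and 55 changed sign without a call. With the replicate block all 87 calls were kept and 1 was gained, Ncapg2 for villi minus crypts in TKO at -0.93 (adjusted p = 0.029). That is 8 instead of 7 genes, and the block changed no other call. Leaving out each array in turn gave 0 to 2 genes for villi minus crypts in Rb (0 without Rb crypts 1), 1 to 7 in TKO (1 without TKO crypts 2, 2 without TKO villi 3), 3 to 5 for TKO minus WT villi (3 without TKO villi 2), 0 to 3 for TKO minus WT crypts (0 without TKO crypts 1 or 3 or WT crypts 2 or 3), 0 to 3 for QKO minus Rb crypts (0 without QKO crypts 1 or Rb crypts 1) and 3 to 7 for the TKO effect in villi minus crypts (3 without TKO crypts 1 or 3, TKO villi 2 or WT villi 3, and 4 without WT crypts 3). With the mean of probe sets, 3 genes were called for villi minus crypts in TKO, 4 for TKO minus WT crypts, 5 for QKO minus Rb crypts and 2 for QKO minus WT villi. With only the groups compared the counts were 1 for villi minus crypts in Rb and 0 for TKO minus WT and QKO minus Rb crypts. Array weights gave 7 for villi minus crypts in Rb, quantile normalization 5 for QKO minus Rb crypts, and sex as a covariate 1 for QKO minus Rb crypts and 1 for QKO minus WT villi. Without WT crypts 3 and Rb crypts 2, left out because their Rb1 opposes the labels, the counts were 1 for villi minus crypts in Rb and 0 for TKO minus WT crypts. Centring on array medians moved the median of all genes by -0.12 for the change with Rb loss by E2f status, and the 10 genes kept their direction. The cause of these shifts was not tested, beyond the fewer arrays where an array or group was left out. For the main villus comparisons, 9 or 10 genes were called for Rb minus WT and QKO minus Rb under the alternatives run.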

Other observations

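Rec8, the kleisin that replaces Rad21 in meiotic cohesin, was higher in WT villi (mean 9.62, range 9.42 to 9.74) than in WT crypts (mean 7.74), by 1.88 ± 0.24 (limma adjusted p = 4e-06). In villi its mean was 7.69 (7.14 to 8.08) in Rb, 8.69 (8.39 to 8.91) in TKO and 7.24 (6.84 to 7.63) in QKO, with differences from WT of -1.93, -0.93 and -2.38 (limma adjusted p = 8.1e-06, 0.016 and 2e-06). Between QKO and TKO villi it differed by -1.45 (limma adjusted p = 0.0011), a comparison in which none of the 10 subunits was called. QKO minus Rb was below 0, as for the 10 subunits, at -0.45 in villi (limma adjusted p = 0.2) and -0.73 in crypts (limma adjusted p = 0.043). Rec8 was picked out of the list of partner genes after its values were seen.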
